A study of Mus musculus with 8 samples.

Results

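The transcription factor p53 is held at a low level by Mdm2, the ubiquitin ligase that marks it for degradation, and it accumulates after DNA damage and other stress. It then binds response elements near its target genes, which halt the cell cycle, set off apoptosis, encode death receptors and secreted stress signals, or feed back on p53. In acute pancreatitis, the enzyme-secreting acinar cells are injured and leukocytes enter the gland, and several p53-linked genes, among them Trp53inp1, are known as stress genes of this tissue. Here, 10 of these targets were followed in whole mouse pancreas: the receptors Eda2r and Tnfrsf10b, the apoptosis genes Bax, Bbc3 and Phlda3, the cell cycle genes Cdkn1a and Ccng1, the feedback genes Mdm2 and Trp53inp1, and the secreted factor Gdf15. They were chosen by name, with earlier results of these data known, and all 10 were found among the 48709 genes of the deposited tables.

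The RNA-Seq compared WT and cKO pancreata after saline or after FAEE-SAP, with 2 libraries from male mice of 8 weeks in each of the 4 groups. FAEE-SAP is severe alcoholic pancreatitis induced by intraperitoneal palmitoleic acid (POA) with ethanol, and the pancreas was taken 24 hours later. The cKO mice carried floxed Pfkfb3 alleles, which encode a regulator of glycolysis, and a Cre transgene under the Pdx1 promoter, which is active in the precursor of the whole pancreas and not only in acinar cells. Both cKO groups carried this deletion. WT mice were bought separately, are not described as littermates, and are not described as carrying Cre. Mice were fasted before pancreatitis was induced, and FAEE-SAP mice also received saline and buprenorphine. The deposited values are RPKM, which is reads per kilobase of exon scaled by library depth, and levels are given below as scaled RPKM, which is RPKM divided by 1 factor per library so that the median gene is level across the 8 libraries.

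Library depth worked out from the low values was 22.9 to 37.8 M reads. Pfkfb3 was at 1.70 and 1.69 scaled RPKM in WT and 0.880 and 2.10 in cKO after saline, and 1.85 and 3.21 in WT and 1.74 and 2.82 in cKO after FAEE-SAP. The libraries labelled cKO overlapped with those of WT after either treatment. A value for the whole gene in whole tissue does not check a deletion of part of it in some cells, so that the genotype rests on the labels. The tissue label was checked by 12 acinar markers, none of which was at 0 in any library. Their summed level was 229571 to 268740 scaled RPKM in WT and 308026 to 319157 in cKO after saline, and 70693 to 74724 in WT and 180405 to 196795 in cKO after FAEE-SAP. Each library is a mixture of cells, so that fewer cells of a type and less RNA per cell cannot be told apart in any value below.

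For 3 of the targets, the stretch of the promoter that comes nearest to the p53 response element without a spacer is shown, and Eda2r is shown because its level moved most. RefSeq (GRCm38.p6) gave 12 promoters for 8 of the 10 genes, each from 250 bases before to 50 bases after a transcription start. None was found for Trp53inp1 and Tnfrsf10b. The response element was searched on both strands by its consensus, a pair of 10-base half-sites with no bases between them. At most 1 mismatch was met by Cdkn1a and Ccng1, against 0.067% of all 32851 promoters, and at most 3 mismatches were met by Bbc3 as well, against 1.38%. The limit of mismatches was chosen after the matches were seen. In the first 3 sequences, the capitals mark the element, which is shown with 20 bases on either side. For Cdkn1a, the start is the upstream one of its 2 RefSeq starts.
Cdkn1a, chr17:29090908-29090967, plus strand, element 51 to 32 bases before the start: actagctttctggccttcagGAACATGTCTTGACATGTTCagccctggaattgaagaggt
Ccng1, chr11:40755442-40755501, minus strand, element 195 to 176 bases before the start: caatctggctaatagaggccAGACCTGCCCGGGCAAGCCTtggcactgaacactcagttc
Bbc3, chr7:16309466-16309525, plus strand, element 97 to 78 bases before the start: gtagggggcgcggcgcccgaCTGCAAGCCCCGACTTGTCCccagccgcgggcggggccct
Eda2r, chrX:97377210-97377459, minus strand, the 250 bases before the start: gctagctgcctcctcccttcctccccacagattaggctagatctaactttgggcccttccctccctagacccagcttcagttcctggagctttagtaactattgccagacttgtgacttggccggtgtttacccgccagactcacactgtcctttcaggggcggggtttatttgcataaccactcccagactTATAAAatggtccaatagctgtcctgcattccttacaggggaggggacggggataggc
The Eda2r promoter had no match to the response element at these limits. Its capitals mark TATAAA, 58 to 53 bases before the start, which was found on either strand in 13.6% of all promoters and in none of the 7 other targets with a promoter. When 0 to 13 bases were allowed between the half-sites, at most 2 mismatches were met by Bax as well as by Cdkn1a and Ccng1, against 4.09% of promoters. Cdkn1a then had a match with 0 mismatches, against 0.0731%, from 73 bases before the start with 12 bases between the half-sites, and its second half-site is the first of the element shown above. A match describes the letters of these windows and is not a measured binding site.

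Eda2r and 6 other targets stood highest in WT mice with FAEE-SAP and lower in cKO mice with FAEE-SAP, although few of the differences passed the test. Both WT FAEE-SAP libraries lay above all 6 other libraries for Eda2r, Tnfrsf10b, Phlda3, Ccng1, Bax, Bbc3 and Gdf15, which is 7 of the 10 targets. The 3 exceptions were Cdkn1a, Mdm2 and Trp53inp1. Gdf15 did not reach 0.5 RPKM in 2 libraries, the filter on low values, and Eda2r and Tnfrsf10b reached it only through the WT FAEE-SAP libraries, so that their place in this count was favoured by it. Of the 7 other targets, 4 had this order (Phlda3, Ccng1, Bax and Bbc3), against 16.3% of the 11133 genes that reached the filter. In the plot of levels by library, the separate WT FAEE-SAP points of the 7 targets named first can be read against the split within cKO for Cdkn1a and Trp53inp1.

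**Figure D1:**
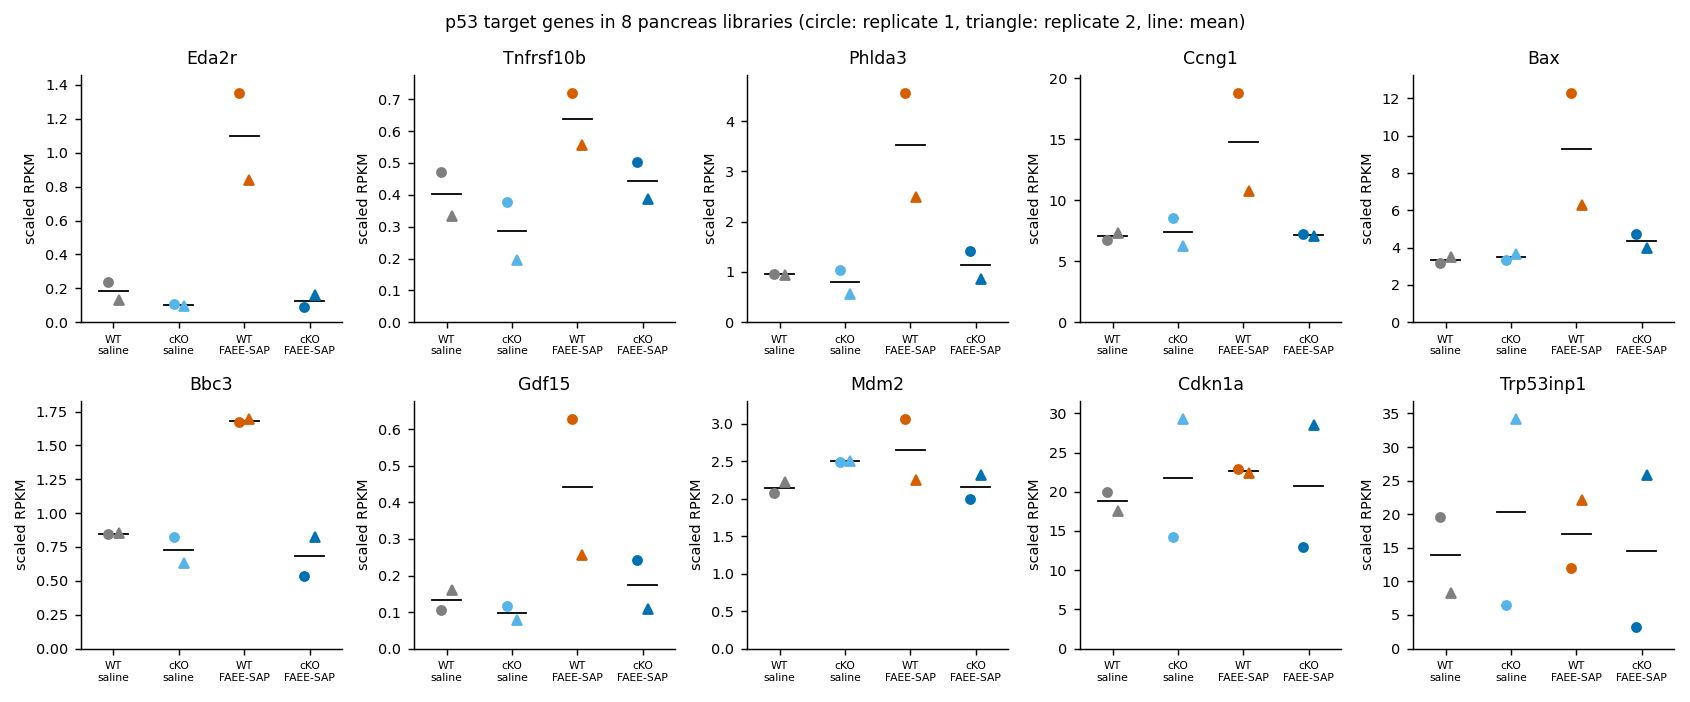
Level of each target (y axis, scaled RPKM, linear from 0) in the 4 groups (x axis), with circles for replicate 1, triangles for replicate 2 and a line at the mean of the 2 libraries. For Eda2r the WT FAEE-SAP libraries sit at 1.35 and 0.838 and the other 6 libraries at 0.238 or less, while for Trp53inp1 the 2 cKO libraries of each treatment lie far apart.

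Eda2r encodes a receptor of the TNF receptor superfamily that binds the A2 form of ectodysplasin, and it lies on the X chromosome (chrX:97333840-97377216, minus strand, as GENCODE vM21 places this and the genes below on GRCm38). Its level was 0.238 and 0.129 scaled RPKM in WT and 0.109 and 0.0975 in cKO after saline, and 1.35 and 0.838 in WT and 0.0882 and 0.163 in cKO after FAEE-SAP. The 3 other groups overlapped in part and the WT FAEE-SAP libraries did not overlap with any of them. These levels rested on about 29 and 18 reads in WT and 15 and 12 in cKO after saline, and 370 and 313 in WT and 15 and 29 in cKO after FAEE-SAP, so that each level outside WT FAEE-SAP rested on 29 reads or fewer. Mean Eda2r was 1.10 ± 0.36 (SD, n = 2) in WT FAEE-SAP and 0.126 ± 0.053 (SD, n = 2) in cKO FAEE-SAP, or 0.115 times as much.

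With FAEE-SAP, Eda2r was lower in cKO than in WT, with a log2 change of -2.57 (SE 0.37, limma adjusted p = 0.0450), on the scale of log2(scaled RPKM + 0.1). It passed the threshold, an adjusted p under 0.05 with at least a 2-fold change, which 1.27% of 11008 genes passed, 0.409% with the lower level in cKO, and none of the 8 other targets tested did. Eda2r entered the test only through the WT FAEE-SAP libraries, where it was high, so that a difference was favoured by the filter and nothing is read from its call against these shares. The call was close to the threshold. It was lost with quantile normalization (adjusted p = 0.0719), without the filter on low values (0.158), with a pseudocount of 1 (0.0544) or 0.01 (0.0593) and without the variance trend (0.0540), while the log2 fold change stayed between -3.31 and -1.10. With an RPKM minimum of 2 it was not tested. Over the same genes, the adjusted p was 0.206 without WT FAEE-SAP replicate 1, 0.259 without WT FAEE-SAP replicate 2, 0.0818 without cKO FAEE-SAP replicate 1 and 0.0438 without cKO FAEE-SAP replicate 2.

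In WT mice, Eda2r rose with FAEE-SAP, with a log2 change of 2.15 (SE 0.36, limma adjusted p = 0.0286), and 6.93% of 10894 genes passed the threshold in this comparison, 3.08% with the higher level after FAEE-SAP. Here too it entered the test only through the WT FAEE-SAP libraries, and nothing is read from the call against these shares. Over the same genes, the log2 fold change lay between 1.77 and 2.54 when 1 library was left out, and the call held only without WT saline replicate 1 (adjusted p = 0.0457, against 0.0752 without WT saline replicate 2, 0.107 without WT FAEE-SAP replicate 1 and 0.132 without WT FAEE-SAP replicate 2). The call was also lost without the filter (adjusted p = 0.0722) and with a pseudocount of 1, where the log2 fold change was 0.93. In cKO mice, Eda2r was under 0.5 RPKM with either treatment and was not tested. The difference between the responses of cKO and WT, the interaction, was -1.94 on the log2 scale (SE 0.51, adjusted p = 0.246) and did not pass the threshold.

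The ligand side of this receptor was followed in the list of receptor ligands and adaptors. Ectodysplasin itself, Eda, was at 2.82 and 1.29 scaled RPKM in WT and 1.41 and 2.59 in cKO after saline, and 0.625 and 0.550 in WT and 1.15 and 1.91 in cKO after FAEE-SAP. Its level in WT FAEE-SAP was thus the lowest of the 4 groups, with a log2 fold change of -1.59 against saline that did not pass the threshold (SE 0.39, adjusted p = 0.0652). Edaradd, the adaptor of the related receptor Edar, was at 2.81 and 1.76 in WT and 2.06 and 1.38 in cKO after saline, and 0.540 and 0.331 in WT and 1.11 and 1.15 in cKO after FAEE-SAP. It fell in WT FAEE-SAP, with a log2 change of -2.20 (SE 0.34, adjusted p = 0.0233). Edar was at 0 in 7 of the 8 libraries. No other of the 8 genes tested in this list passed the threshold in WT, and none passed in cKO against WT with FAEE-SAP.

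Tnfrsf10b, the mouse death receptor for TRAIL (chr14:69767472-69784411, plus strand), had a narrower range. It was at 0.473 and 0.333 scaled RPKM in WT and 0.377 and 0.196 in cKO after saline, and 0.720 and 0.557 in WT and 0.502 and 0.387 in cKO after FAEE-SAP. The WT FAEE-SAP libraries were the highest, but the lower of them was only just above the higher cKO FAEE-SAP library. Neither the log2 fold change of 0.57 in WT (SE 0.29, adjusted p = 0.267) nor that of -0.47 between cKO and WT with FAEE-SAP (SE 0.29, adjusted p = 0.429) passed the threshold.

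Among the apoptosis genes, Phlda3, Bax and Bbc3 were all higher in both WT FAEE-SAP libraries than in any other. Phlda3 encodes a small lipid-binding protein that keeps the survival kinase Akt from the membrane (chr1:135766119-135769136, plus strand). It was at 0.962 and 0.948 scaled RPKM in WT and 1.04 and 0.553 in cKO after saline, and 4.56 and 2.49 in WT and 1.42 and 0.851 in cKO after FAEE-SAP. It rose in WT, with a log2 change of 1.73 (SE 0.32, adjusted p = 0.0359), and was the second of the 2 targets that passed in this comparison. The call was lost over the same genes without any 1 of the 4 libraries (adjusted p = 0.115 without WT saline replicate 1, 0.106 without WT saline replicate 2, 0.0788 without WT FAEE-SAP replicate 1 and 0.0776 without WT FAEE-SAP replicate 2), and also without the filter (0.0739) and with a replicate block (0.0508). Between cKO and WT with FAEE-SAP, the log2 fold change of -1.56 did not pass (SE 0.38, adjusted p = 0.126), but did so with a replicate block (0.0193).

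Bax forms the pores in the mitochondrial outer membrane through which apoptosis proceeds (chr7:45461697-45466898, minus strand). Its level was 3.16 and 3.51 scaled RPKM in WT and 3.33 and 3.68 in cKO after saline, and 12.3 and 6.30 in WT and 4.72 and 3.997 in cKO after FAEE-SAP. Both cKO FAEE-SAP libraries were above all 4 saline libraries and below both WT FAEE-SAP libraries. The log2 fold change was 1.37 in WT (SE 0.33, adjusted p = 0.0637) and 0.33 in cKO (SE 0.19, adjusted p = 0.609).

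Bbc3 encodes Puma, the BH3-only activator of Bax (chr7:16308393-16318205, plus strand). It was at 0.843 and 0.855 scaled RPKM in WT and 0.823 and 0.631 in cKO after saline, and 1.67 and 1.69 in WT and 0.538 and 0.827 in cKO after FAEE-SAP. The 2 libraries of each WT group almost coincided, and the cKO FAEE-SAP libraries lay within or below the range of saline. The log2 fold change of Bbc3 was 0.92 in WT (SE 0.21, adjusted p = 0.0578) and -1.26 between cKO and WT with FAEE-SAP (SE 0.28, adjusted p = 0.113). Neither passed, although the second did so with 8 libraries in 1 model (adjusted p = 0.0455) and with a replicate block (0.0481).

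The cell cycle genes differed from each other. Ccng1 encodes cyclin G1, which acts with protein phosphatase 2A on Mdm2 (chr11:40748552-40755311, minus strand). It was at 6.74 and 7.35 scaled RPKM in WT and 8.56 and 6.22 in cKO after saline, and 18.8 and 10.8 in WT and 7.20 and 7.03 in cKO after FAEE-SAP. The cKO FAEE-SAP libraries fell inside the range of saline and below both WT FAEE-SAP libraries. The log2 fold change was 1.001 in WT (SE 0.29, adjusted p = 0.0925) and -1.004 between cKO and WT with FAEE-SAP (SE 0.29, adjusted p = 0.166).

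Cdkn1a, which encodes the cyclin-dependent kinase inhibitor p21 (chr17:29090976-29100727, plus strand), had overlapping groups in every comparison but FAEE-SAP against saline in WT. Its level was 19.99 and 17.6 scaled RPKM in WT and 14.3 and 29.3 in cKO after saline, and 22.9 and 22.4 in WT and 12.9 and 28.5 in cKO after FAEE-SAP. The 2 WT libraries of each treatment were close to each other, with both of FAEE-SAP slightly above both of saline, whereas replicate 2 was 2.05 times replicate 1 in cKO saline and 2.21 times in cKO FAEE-SAP. Cdkn1a had a log2 fold change of 0.26 in WT (SE 0.17, adjusted p = 0.361) and of -0.24 between cKO and WT with FAEE-SAP (SE 0.38, adjusted p = 0.776). The latter became 0.35 without cKO FAEE-SAP replicate 1. Of 16 division genes that p21 is known to lower through the pocket proteins, 2 reached 0.5 RPKM in the comparison of cKO and WT with FAEE-SAP, and neither passed the threshold. None of the 13 p21 partners and related inhibitors passed in any comparison, with 11 tested in WT and 11 in cKO against WT with FAEE-SAP, where 6.93% and 1.27% of all genes passed, so that 0 of 11 is near these shares.

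The feedback genes showed no difference past the threshold. Mdm2 (chr10:117688875-117710758, minus strand) was at 2.07 and 2.22 scaled RPKM in WT and 2.49 and 2.50 in cKO after saline, and 3.06 and 2.25 in WT and 2.001 and 2.31 in cKO after FAEE-SAP. Its whole range over the 8 libraries was narrow beside that of Eda2r. The FAEE-SAP libraries lay above those of saline in WT and below them in cKO, an order without overlap that 2.93% of 9338 genes had. The log2 fold change was 0.28 in WT (SE 0.23, adjusted p = 0.499) and -0.29 between cKO and WT with FAEE-SAP (SE 0.25, adjusted p = 0.578).

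Trp53inp1 encodes a nuclear stress protein known from the inflamed pancreas, and it promotes p53 activity (chr4:11156431-11174379, plus strand). It had the widest spread within groups, with 19.5 and 8.23 scaled RPKM in WT and 6.50 and 34.2 in cKO after saline, and 12.1 and 22.1 in WT and 3.23 and 25.8 in cKO after FAEE-SAP. Replicate 2 was 5.25 times replicate 1 in cKO saline and 8.00 times in cKO FAEE-SAP, but 0.422 times in WT saline. All 4 groups overlapped. Trp53inp1 had log2 fold changes of 0.36 in WT (SE 0.48, adjusted p = 0.680) and -0.84 between cKO and WT with FAEE-SAP (SE 0.93, adjusted p = 0.673), and the sign of each changed with the library left out.

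Gdf15, the secreted stress cytokine whose receptor Gfral is found in the hindbrain, was with Eda2r among the lowest targets (chr8:70629393-70632456, minus strand). It was at 0.105 and 0.160 scaled RPKM in WT and 0.115 and 0.0776 in cKO after saline, and 0.628 and 0.256 in WT and 0.243 and 0.107 in cKO after FAEE-SAP. The WT FAEE-SAP libraries were the highest, the lower of them by little. About 54 and 30 reads stood behind them, against 3 to 13 reads in each of the other libraries. Gdf15 was under the filter on low values, and with no filter its log2 fold changes were 1.26 in WT (adjusted p = 0.208) and -1.08 between cKO and WT with FAEE-SAP (adjusted p = 0.418).

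Seen together by comparison, 9 targets were tested in WT FAEE-SAP against WT saline. Eda2r and Tnfrsf10b reached the filter of 0.5 RPKM in 2 libraries only through WT FAEE-SAP, where they were high, which favoured their sign, so that signs and medians are given over the 7 others. All 7 log2 fold changes were above 0, with a median of 0.92 against 0.02 over all genes tested. Against 6.93% of all genes that passed the threshold, 3.08% with FAEE-SAP higher, 1 of the 7, Phlda3, passed. The libraries of both groups did not overlap for 6 of them, with FAEE-SAP higher, as for 29.3% of all genes tested. Between cKO and WT with FAEE-SAP, the 7 log2 fold changes were below 0, with a median of -1.004 against -0.01 over all genes. None of the 7 passed, where 1.27% of all genes did, 0.409% with cKO lower. The groups did not overlap for 4 of the 7, with cKO lower, as for 25.7% of all genes. Over the same genes the median of the 7 was -0.61 without WT FAEE-SAP replicate 1, and in WT it was 0.59 with a pseudocount of 1. These 2 comparisons share the WT FAEE-SAP libraries, so that their opposite signs are not separate evidence. With an unadjusted p under 0.05 and at least 2-fold, the numbers were 3 of the 7 in WT, where 12.4% of all genes met this, and 4 of the 7 between cKO and WT, where 8.39% did.

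In the 2 comparisons that do not use the WT FAEE-SAP libraries, the targets showed no change past the threshold. In cKO mice, 7 targets were tested for FAEE-SAP against saline, with log2 fold changes from -0.66 to 0.49 and adjusted p from 0.609 to 0.993. None of the 7 passed, nor met an unadjusted p under 0.05, where 0.0531% of 9423 genes passed and 2.97% met the unadjusted p with at least a 2-fold change. Between cKO and WT with saline, the 7 targets tested had log2 fold changes from -0.30 to 0.21, and 0 of 8715 genes passed in limma (0%), while 0.677% had an unadjusted p under 0.05 with at least a 2-fold change. Eda2r, Gdf15 and Tnfrsf10b were not tested in these comparisons, since none of them had 2 libraries at 0.5 RPKM or more. Tnfrsf10b had 1, which was cKO FAEE-SAP replicate 1. The plot of fitted changes places the 4 comparisons side by side.

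**Figure D2:**
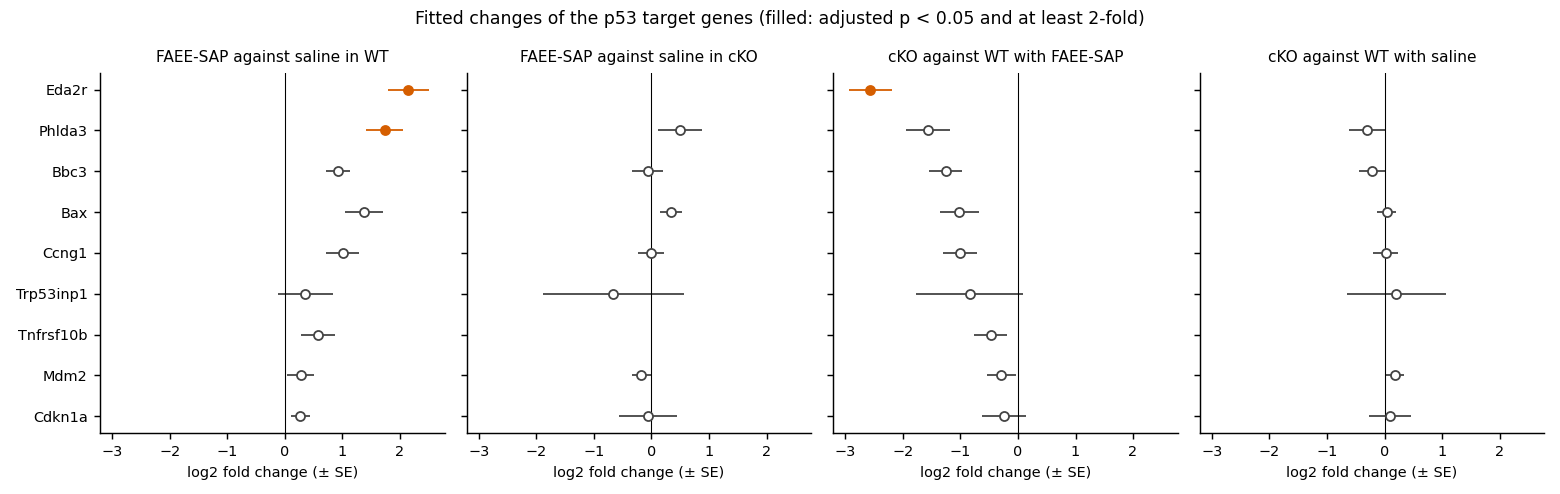
Fitted log2 fold change (x axis, points with bars of 1 SE, n = 2 libraries per group) of the targets tested (y axis) in 4 comparisons. Filled points passed an adjusted p under 0.05 with at least a 2-fold change, which were Eda2r (2.15) and Phlda3 (1.73) in WT and Eda2r (-2.57) in cKO against WT with FAEE-SAP, and targets without a point did not reach 0.5 RPKM in 2 libraries of the comparison.

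The interaction of genotype and treatment was below 0 for all of these 7 targets, with a median of -1.04 against 0.02 over all genes (-0.64 without WT FAEE-SAP replicate 1, while Cdkn1a and Trp53inp1 changed sign without cKO saline replicate 2 or cKO FAEE-SAP replicate 1), but none of the 9 targets tested passed the threshold, which 0.0719% of 11133 genes did. Besides Eda2r, the values were -1.07 for Bax (SE 0.42, adjusted p = 0.372), -1.04 for Ccng1 (SE 0.40, adjusted p = 0.363) and -1.01 for Bbc3 (SE 0.34, adjusted p = 0.315). These are the 3 of the 7 with an unadjusted p under 0.05 and at least a 2-fold difference, which 7.02% of all genes had, and Eda2r, which the filter favoured, met this too. For Phlda3 it was -1.24 (SE 0.55, adjusted p = 0.419). The response of the targets was therefore not shown to differ between cKO and WT with 2 libraries per group. An exact permutation test of a single gene in 2 against 2 libraries cannot give a p below 0.33. That bound is not one of the limma interaction fit, which used 8 libraries and in which 8 genes passed.

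No change of the factor itself or its regulators passed the threshold. Trp53, which encodes p53, was at 1.16 and 1.44 scaled RPKM in WT and 1.002 and 0.947 in cKO after saline, and 2.18 and 1.27 in WT and 1.16 and 0.770 in cKO after FAEE-SAP. WT FAEE-SAP replicate 1 was the highest library, and replicate 2 lay within the range of WT saline. None of the 17 genes of p53 and its regulators passed the threshold in any comparison, with 12 tested in WT, where 6.93% of all genes passed, and 12 between cKO and WT with FAEE-SAP, where 1.27% did, so that 0 of 12 is near these shares. RNA levels do not measure the p53 protein.

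A wider list of 33 other p53 target genes showed a mixed picture. In WT, 29 were tested, of which 3 rose and 1 fell, where 6.93% of all genes passed and 3.08% rose. The median log2 fold change was 0.38, against 0.02 over all genes. Plk3, Gadd45a, Apaf1, Polk, Tigar and Pmaip1 were under 0.5 RPKM in both WT saline libraries. They entered this test only through WT FAEE-SAP, which favoured a higher value. Plk3 itself stood at 0.38, so that nothing is read from this median. The 3 that rose were Btg2, an antiproliferative factor (1.80), Sfn, the 14-3-3 protein sigma that holds cells before division (1.70), and Sulf2, an extracellular sulfatase (1.35). Cyfip2, a regulator of actin, fell by 1.23 on the log2 scale, but stood at 0.068 with the values as deposited. Between cKO and WT with FAEE-SAP, 15 of the 30 tested were above 0 and 15 below, the median was -0.0031, and none passed, where 1.27% of all genes did.

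Single genes of that list ordered the groups differently. Zmat3, an RNA-binding p53 target, was at 0.843 and 0.726 scaled RPKM in WT and 0.722 and 0.639 in cKO after saline, and 2.16 and 1.34 in WT and 0.539 and 0.615 in cKO after FAEE-SAP. Its log2 fold change of -1.47 between cKO and WT with FAEE-SAP was similar in size to that of Phlda3 and did not pass (SE 0.30, adjusted p = 0.0943). Sulf2, in contrast, was at 3.63 and 2.29 in WT FAEE-SAP and at 3.36 and 3.28 in cKO FAEE-SAP, against 0.931 to 1.14 in the 4 saline libraries, so it stood above saline with either genotype.

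Other lists held genes that act beside the targets, and their counts in WT stand beside the same 6.93% of all genes. Of 19 genes of the BCL2 family and caspases, 17 were tested in WT, and Bcl2l1, which encodes the survival factor Bcl-xL, rose by a log2 change of 1.68 (SE 0.35, adjusted p = 0.0461). Of 10 genes of the integrated stress response, 9 were tested in WT, where Nupr1 rose (1.63, SE 0.16, adjusted p = 0.00721) and Asns, the asparagine synthetase, fell by 1.18 on the log2 scale (SE 0.18, adjusted p = 0.0240), but stood at 0.14 with the values as deposited. Nupr1, a chromatin protein known from pancreatitis, was at 256 and 205 scaled RPKM in WT and 313 and 330 in cKO after saline, and 707 and 719 in WT and 193 and 278 in cKO after FAEE-SAP. It was the 1 of 87 genes tested from the 7 lists that passed between cKO and WT with FAEE-SAP, a share near the 1.27% of all genes, with a log2 change of -1.63 (SE 0.22, adjusted p = 0.0387). That call was lost without WT FAEE-SAP replicate 1 (adjusted p = 0.145) or replicate 2 (0.300). In WT, the calls of Sulf2, Cyfip2, Bcl2l1 and Asns were lost without any 1 of the 4 libraries, with adjusted p from 0.0558 to 0.171. Those of Sfn (0.0327) and Edaradd (0.0250) held only without WT saline replicate 2, that of Btg2 only without WT FAEE-SAP replicate 1 (0.0278), and that of Nupr1 was lost without WT FAEE-SAP replicate 2 (0.0649).

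The genes most like Eda2r over the 8 libraries were named by the smallest root mean square difference between their centred log2 levels, among 10522 genes. They were Ypel1 (0.147), Tifa (0.273) and Stmn1 (0.361), against a median of 1.09 over all genes. Tifa, an adaptor of the TRAF6 signaling route to NF-kappaB, was at 7.82 and 6.46 scaled RPKM in WT FAEE-SAP and at 1.47 or less in the other 6 libraries. Of the targets, Phlda3 came closest to Eda2r, at rank 20. The genes most like Cdkn1a were Chchd5 (0.135), Sidt2 (0.147) and Cep85 (0.158), and Eda2r was at rank 9920 in that order.

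The genes most like Trp53inp1, named after its values were seen, were D230025D16Rik (0.394), Fkbp5 (0.401) and Slc19a2 (0.425). Fkbp5, a co-chaperone of the glucocorticoid receptor, was at 14.9 and 7.35 scaled RPKM in WT and 6.46 and 18.3 in cKO after saline, and 6.83 and 21.6 in WT and 3.74 and 30.0 in cKO after FAEE-SAP. It was thus higher in replicate 1 than in replicate 2 of WT saline and lower in each of the other groups, as Trp53inp1 was. Sesn1, a p53 target that restrains mTORC1, had this order as well, with 42.1 and 17.0 in WT and 17.5 and 42.4 in cKO after saline, and 3.46 and 27.5 in WT and 3.55 and 53.6 in cKO after FAEE-SAP. The plot of these 4 genes shows both libraries of each group.

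**Figure D3:**
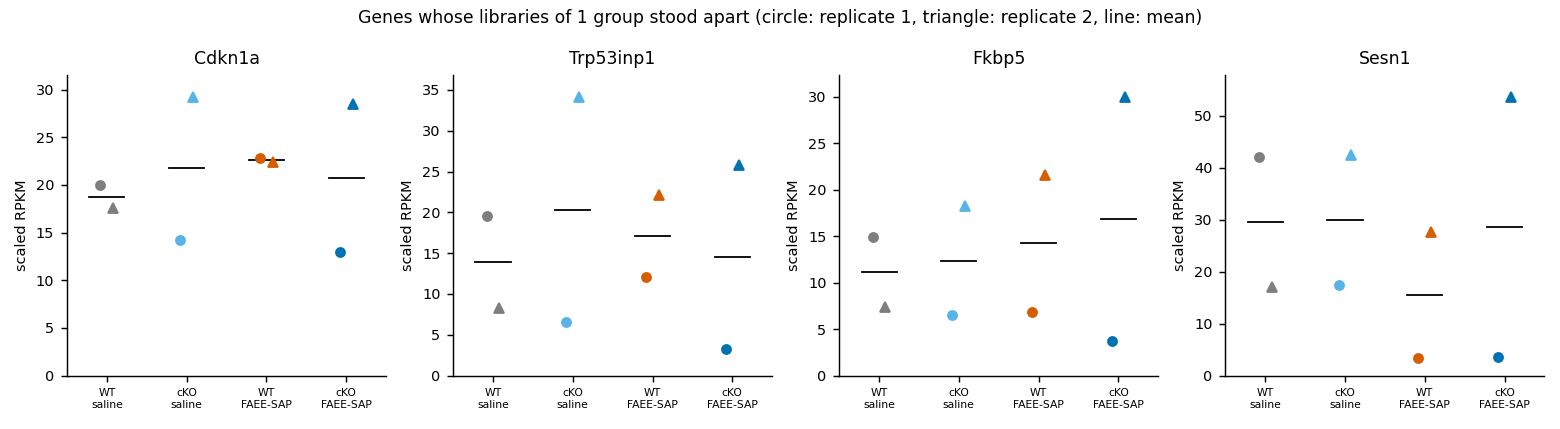
Level (y axis, scaled RPKM, linear from 0) of Cdkn1a, Trp53inp1, Fkbp5 and Sesn1 in the 4 groups (x axis), with circles for replicate 1, triangles for replicate 2 and a line at the mean. In both cKO groups replicate 2 is above replicate 1 for all 4 genes, as for Trp53inp1 with 34.2 against 6.50 after saline.

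Markers of several cell types also differed between the groups, not all in the order of the targets. The summed level of 8 neutrophil markers was 1.51 to 2.62 scaled RPKM in WT and 1.58 to 4.10 in cKO after saline, and 55.9 to 60.9 in WT and 13.1 to 20.7 in cKO after FAEE-SAP. All 7 that were tested rose in WT, where 3.08% of all genes rose, and 2 of 7, S100a8 and Retnlg, were lower in cKO than in WT with FAEE-SAP, where 0.409% were. Of the 8, 1 was tested between the saline groups and 4 in cKO. Others thus entered these tests only through WT FAEE-SAP libraries, where they were high. The filter favoured a difference, and nothing is read from these calls against the shares. Mmp8 and Ly6g were at 0 in some libraries. The acinar markers took the opposite order, with 12 of 12 that fell in WT and 8 of 12 higher in cKO than in WT with FAEE-SAP. Over all genes, 6.93% passed in WT and 1.27% between cKO and WT with FAEE-SAP, in either direction. The calls of other markers below stand beside the same shares. Under quantile normalization, the sign changed for Cela1 and Cela3b in WT and for Cela3b and Pnlip between cKO and WT. The 7 islet markers summed to 285 to 339 in WT and 302 to 372 in cKO after saline, and 181 to 239 in WT and 428 to 450.2 in cKO after FAEE-SAP. Of these, Sst and Gcg passed with a lower level after FAEE-SAP in WT, although Gcg stood at a log2 value of 0.31 as deposited, and Sst, Gcg and Iapp were higher in cKO than in WT with FAEE-SAP.

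The 8 macrophage markers summed to 72.9 to 90.4 in WT and 86.3 to 88.6 in cKO after saline, and 81.0 to 109 in WT and 108 to 124 in cKO after FAEE-SAP, so that WT and cKO overlapped. Of the 8, 6 had a log2 fold change above 0 between cKO and WT with FAEE-SAP, 5 without overlap, as for 26.1% of all genes, and the median was 0.55. Cd14, the co-receptor for lipopolysaccharide, had the opposite sign. It was at 1.02 and 1.42 in WT and 1.55 and 2.53 in cKO after saline, and 14.3 and 12.6 in WT and 2.40 and 2.74 in cKO after FAEE-SAP. Cd14 rose in WT (log2 3.39, adjusted p = 0.00288) and was lower in cKO than in WT with FAEE-SAP (-2.37, adjusted p = 0.0156), and it was the 1 of the 8 macrophage markers that passed. Of 6 adipocyte markers, Retn and Fabp4 rose in WT and none passed between cKO and WT with FAEE-SAP, where the sums were 54.2 to 71.5 in WT and 18.3 to 60.6 in cKO, against 23.3 to 36.8 and 23.9 to 45.5 after saline. Retn was under 0.5 RPKM in both WT saline libraries and entered the test in WT only through FAEE-SAP. Of the 8 duct markers, Spp1 rose in WT. Of the 5 mesothelial markers, Krt18, a keratin that other epithelial cells share, rose in WT, and the other 4 summed to 1.98 to 2.66 in WT and 2.86 to 4.66 in cKO after saline, and 0.904 to 0.959 in WT and 1.37 to 3.19 in cKO after FAEE-SAP, lowest in WT FAEE-SAP. No marker of T cells, B and plasma cells, fibroblasts, endothelial cells or red blood cells passed in any comparison. The part of these cells in the levels of the targets was not tested.

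**Figure D4:**
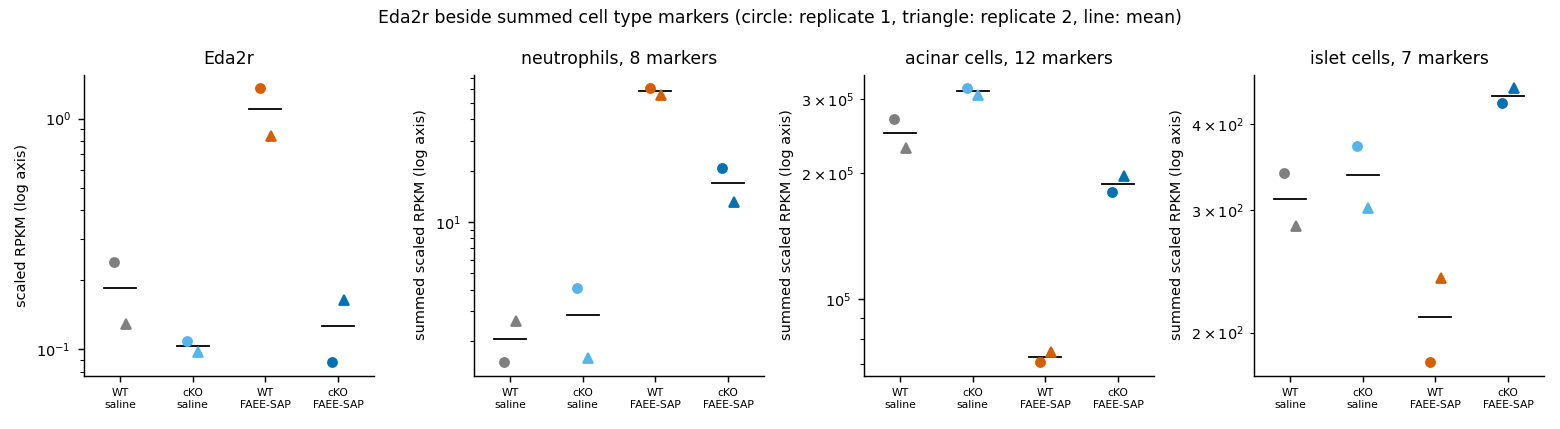
Eda2r (scaled RPKM) beside the summed scaled RPKM of neutrophil, acinar and islet markers (y axes, log scale) in the 4 groups (x axes), with circles for replicate 1, triangles for replicate 2 and a line at the mean. Neutrophil markers in cKO FAEE-SAP, at 13.1 to 20.7, lie above saline and below WT FAEE-SAP, while Eda2r in cKO FAEE-SAP, at 0.0882 and 0.163, lies within or below the range of the saline libraries.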

How the data were processed

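RNA-Seq of whole pancreas was analysed in 8 libraries, 2 for each of the 4 groups, which the series describes as biological replicates. Groups and replicate numbers came from the labels. Per the study's methods, reads from a directional kit were filtered with fastp and mapped to GRCm38.p6 with CLC Genomics Workbench. The authors deposited RPKM for 48709 genes per library. How RPKM was computed, and whether strand was used, is not given in the sources used here. Library totals of 22.9 to 37.8 M reads were worked out as the total that makes low values whole reads. Between 83.9% and 85.4% of values under 20 reads were whole within 0.1 reads, and 46319 symbols matched GENCODE vM21 on GRCm38. The reads summed to 100.3% to 105.7% of the totals, so reads per gene are approximate.

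Genes with at least 0.5 RPKM in at least 2 libraries of a comparison were scaled by the median of ratios, put on the scale of log2(scaled RPKM + 0.1), and fitted by limma 3.58.1 (R 4.3.3) using a variance trend and Benjamini-Hochberg adjustment over all genes tested. A gene passed at an adjusted p under 0.05 with at least a 2-fold change. The limma procedure was tested on simulated data. With 196 of 10747 genes changed, it recovered 51.0% of 4-fold and 69.4% of 8-fold changes. Of its 127 calls, 9 fell on unchanged genes, and it made 0 calls when nothing was changed. Smaller changes were not simulated. Tables were made with Python 3.11.15, pandas 2.3.3 and numpy 2.4.6, and figures with matplotlib 3.10.9. The targets and the gene lists were chosen with earlier results of these data known. The rule for names took all 10 targets, the up to 4 called genes of each list with the largest change, the 3 genes most like Eda2r and Cdkn1a, and Pfkfb3. Trp53, Eda, Edar, Zmat3, Aen, Xpc, Fdxr, Ak1, Cflar, Cdkn2c, Atm, Sesn1, the levels of Sulf2 in cKO and the genes most like Trp53inp1 were named after their values were seen. Alternatives changed the scaling, filter, pseudocount, variance trend, model, threshold and libraries.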

Additional observations from a re-analysis of the deposited data

Results flagged for a closer look

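Of the targets, Mdm2 was the 1 in which the libraries of WT and cKO moved in opposite directions with FAEE-SAP, without overlap in either genotype. Both WT FAEE-SAP libraries, at 3.06 and 2.25 scaled RPKM, were above both WT saline libraries, at 2.07 and 2.22, and both cKO FAEE-SAP libraries, at 2.001 and 2.31, were below both cKO saline libraries, at 2.49 and 2.50. The response of Mdm2 in cKO minus that in WT was -0.48 on the log2 scale (SE 0.28, limma adjusted p = 0.508) and did not pass the threshold. With the values as deposited, Mdm2 was higher in FAEE-SAP than in saline in cKO as well.

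The same order, higher with FAEE-SAP in WT and lower in cKO, was found for 4 of the 71 genes of the pathway lists tested in both genotypes, Aen, Zmat3, Xpc and Nupr1, and for 2.93% of all genes. The reverse order was found for 4 others, Fdxr, Ak1, Cflar and Cdkn2c, and for 2.82% of all genes. The response of Nupr1 in cKO minus that in WT was -2.11 on the log2 scale (SE 0.29, limma adjusted p = 0.0740), and that of Zmat3 was -1.24 (SE 0.36, adjusted p = 0.274). Neither passed the threshold. The genotypes also differed in opposite directions after saline and after FAEE-SAP for 5 of 65 genes of these lists and for 6.53% of all genes. Nupr1 was higher in cKO with saline and lower with FAEE-SAP, and Atm, Fdxr, Cyfip2 and Cflar were lower in cKO with saline and higher with FAEE-SAP. The difference was 1.13 for Cyfip2 (SE 0.26, adjusted p = 0.202) and 1.54 for Fdxr (SE 0.43, adjusted p = 0.263). For the others, the response in cKO minus that in WT was -1.40 for Aen, -0.74 for Xpc, 1.14 for Ak1, 0.72 for Cflar, 1.13 for Cdkn2c and 0.63 for Atm, with adjusted p from 0.151 to 0.451, so that none of these genes passed the threshold. Groups of 2 libraries were too small to look for single libraries far from the others.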

How the results depend on the processing

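With 2 libraries per group, none of the 3 calls of a target held under every setting. Those of Eda2r were favoured by the filter on low values. The counts below are of targets alone, without the share of all genes that passed under each setting. A rise or fall in them is therefore not read as a result about the targets. Without scaling, the median over all genes stood at a log2 value of 1.24 in WT and at -0.91 between cKO and WT with FAEE-SAP. Between cKO and WT with FAEE-SAP, 1 target passed, which became 8 with the values as deposited, 5 by unadjusted p, 3 with a replicate block, 2 with 8 libraries in 1 model, and 0 with quantile normalization, no filter, an RPKM minimum of 2, either other pseudocount or no variance trend, and 0 to 1 when 1 library was left out. In WT, 2 passed, which became 9 as deposited, 4 when scaled by the sum of genes at or under 1000 RPKM or by unadjusted p, 1 with an RPKM minimum of 2, a pseudocount of 1 or a replicate block, 0 with no filter, and 0 to 1 when 1 library was left out. For the interaction, 0 passed, against 2 as deposited and 4 by unadjusted p. None passed with saline or in cKO under any setting. The 7 targets with both WT FAEE-SAP libraries highest became 9 as deposited, 7 with a trimmed mean of log ratios and 6 of 9 with quantile normalization. As deposited, Cyfip2 (0.068) and Asns (0.14) changed sign in WT. When 1 library was left out, the log2 fold change between cKO and WT with FAEE-SAP lay from -0.83 to 0.35 for Cdkn1a and from -2.35 to 0.67 for Trp53inp1, and in WT from -0.28 to 0.98 for Trp53inp1, with -0.079 over the genes of the full comparison without WT FAEE-SAP replicate 2. Of the 7 targets tested, 6 changed sign under some setting with saline and 5 in cKO, and of the 9 tested in the interaction 3 did (Cdkn1a, Trp53inp1 and Tnfrsf10b). Same-numbered replicates shared only a number: their deviations correlated at 0.31 and 0.45 with FAEE-SAP and in cKO, and at -0.40 and -0.18 with saline and in WT. The crossed pairing, added after seeing the data, gave 0 calls with saline and 3 in WT. Leaving out libraries over the genes of the full comparison was also added then.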
